A study of Mus musculus with 16 samples.

Results

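The phagocyte NADPH oxidase was followed here through 6 of its genes, Cybb, Cyba, Ncf1, Ncf4, Rac1 and Rac2, of 23337 gene symbols counted. They were chosen by gene symbol and not by a cut on any measured value, but with earlier results of these data known. They were measured by bulk RNA-Seq in 16 libraries of mouse blood neutrophils. LTβRΔN mice carry floxed Ltbr alleles and a Cre driven by the Mrp8 (S100a8) promoter, which is active in neutrophils, and controls were littermates with the same floxed alleles and no Cre, all 8 weeks old and on a C57/Bl6 background. Controls gave 7 libraries, 3 of them unstimulated and 4 stimulated, and LTβRΔN mice gave 9, of which 4 were unstimulated and 5 stimulated. By the treatment protocol, cells were kept for 2 h in GM-CSF and TNF, each at 100 ng/ml, and 50 ng/ml of IL-6, and LIGHT, a ligand of LTβR, was present at 500 ng/ml or left out. The series' own design text names the cytokines as the treatment, so whether the unstimulated libraries received them is not settled by these sources. Which libraries received LIGHT is not given in their labels. Groups are therefore named by their labels, stimulated and unstimulated. Within a group, libraries are numbered in the order of their records, and since nothing says that they came from separate animals, p-values measure the spread between libraries, which may be technical.

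The oxidase passes electrons from NADPH across a membrane to oxygen and so makes superoxide, the first product of the respiratory burst with which neutrophils attack microbes. Its catalytic core is a flavocytochrome in the membrane, built from gp91phox (NOX2, the product of Cybb) and p22phox (Cyba). In a resting cell the core is idle, and on activation the organizer p47phox (Ncf1) and its partner p40phox (Ncf4), which binds a phosphoinositide of the phagosome, move to the membrane together with a GTP-loaded Rac GTPase. Rac2 is the Rac form typical of blood cells and Rac1 the widely used form. Loss of phox subunits causes chronic granulomatous disease. Assembly is controlled largely at the protein level, through phosphorylation and Rac loading, which RNA counts do not measure.

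Of the 6 genes, Ncf1 was the one whose RNA differed between the labels of stimulation past the threshold, and this when both genotypes were averaged. Its stretch before the transcription start is printed here for that reason, and that of Cybb beside it because its stimulated and unstimulated control libraries did not overlap. Both are on the minus strand of GRCm38.p6, as given by RefSeq, 250 bases long and written 5′ to 3′ towards the start. The Ncf1 stretch lies at chr5:134229626-134229875 and the Cybb stretch at chrX:9469325-9469574. The start of Cybb is that of RefSeq. The GENCODE M21 annotation lets the gene begin farther upstream, at 9487771, so the Cybb stretch lies inside its span there.
Ncf1: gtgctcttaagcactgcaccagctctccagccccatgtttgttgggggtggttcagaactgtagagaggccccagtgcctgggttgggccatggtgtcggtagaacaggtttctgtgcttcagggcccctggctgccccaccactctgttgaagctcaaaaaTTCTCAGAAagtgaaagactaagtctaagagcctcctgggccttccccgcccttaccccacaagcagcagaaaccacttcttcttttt
Cybb: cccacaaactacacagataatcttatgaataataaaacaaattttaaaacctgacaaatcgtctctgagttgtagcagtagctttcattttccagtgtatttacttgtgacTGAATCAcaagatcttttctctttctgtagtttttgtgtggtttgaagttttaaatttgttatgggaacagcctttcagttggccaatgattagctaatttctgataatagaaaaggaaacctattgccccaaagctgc
Capitals in Ncf1 mark a match to the STAT motif TTCNNNGAA, 88 bases before the start, and capitals in Cybb a match to the AP-1 motif TGANTCA, 139 bases before the start. The search covered both strands of 300 bases per gene, 250 before and 50 after the start. Of 32851 such windows in RefSeq, 8.30% held the STAT motif and 7.81% the AP-1 motif. The PU.1 core GAGGAA, present in 28.3% of windows, was found in Cybb 9 bases after the start, on the opposite strand, and not in Ncf1. The window of Cyba held none of the motifs searched, and a consensus of NF-kB, present in 4.51% of windows, was in none of the 3. RefSeq windows were at hand for Cyba, Cybb and Ncf1, and Ncf4, Rac1 and Rac2 had no entry. A match describes letters only and says nothing of binding.

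The labels were checked first. Ltbr, the deleted gene, lay between 84.6 and 154 CPM (counts scaled to a common library total with TMM factors) in the 7 control libraries and between 0.705 and 18.1 CPM in the 9 LTβRΔN libraries. It was lower in LTβRΔN neutrophils by a log2 fold change of -3.80 without and -3.71 with stimulation (edgeR adjusted p = 1.09e-04 and 3.83e-05). Cish, a target of STAT5 signalling, Socs3, a target of STAT3, and Nfkbia, a target of NF-kB, rose with the stimulated label by 8.60, 4.03 and 5.0 on the log2 scale in controls and by 8.05, 3.59 and 4.85 in LTβRΔN neutrophils. All 10 neutrophil markers were counted in every group, with summed levels of 47854 to 78674 CPM. Summed markers of other cells reached 440 CPM for monocytes, 114 CPM for eosinophils, 67.0 CPM for erythroid cells, 16.4 CPM for T and NK cells and 1.60 CPM for B cells. The first 3 sums were carried by Csf1r, Siglec5 (listed as Siglecf) and Beta-s, which alone reached 439, 109 and 66.2 CPM, while Ly86, Fn1, Epx, Prg2 and Ear1 had 0 counts in all libraries. Library totals ran from 1094335 to 11932653 counts, and the 5 stimulated LTβRΔN libraries had a median total of 2408608.

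Each of the 6 genes was counted in every library, but at very different levels per length. On the scale of CPM per kilobase of exon, the median over 16 libraries was 1262 for Rac2, 1055 for Cyba, 198 for Ncf4, 158 for Ncf1, 89.1 for Rac1 and 3.26 for Cybb. Among 8343 tested genes with a length, Rac2, Cyba, Ncf4, Ncf1 and Cybb held ranks 46, 55, 264, 300 and 3941. On this scale the counts of the catalytic subunit were thus the lowest of the 6 and those of its membrane partner among the highest. The annotation used for counting was not given in the sources used here. Whether it lowers the count of Cybb was not tested. In unstimulated controls, Cybb made up 0.128% ± 0.0514 (SD, n = 3) and Cyba 38.8% ± 2.86 of the summed per-length level of the 6 genes.

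Not every step in that order was larger than the spread between libraries. Rac2 exceeded Cyba in 15 of 16 libraries by a median of 1.25-fold when exons of all transcripts were joined, but was lower in 15 of 16 when the longest transcript was used, so the order of these 2 depends on the length taken. Ncf4 exceeded Ncf1 in 11 of 16 libraries, with ratios from 0.696 to 2.31, and these neighbours overlapped. Ncf1 exceeded Rac1 in 15 of 16 libraries. Exons of another gene, Daglb, overlap 51.4% of the exon bases of Rac1, and whether this alters the count and place of Rac1 was not tested. Cyba stood above Ncf4 and Rac1 above Cybb in 16 of 16 libraries, by at least 4.25-fold and 7.98-fold.

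**Figure D1:**
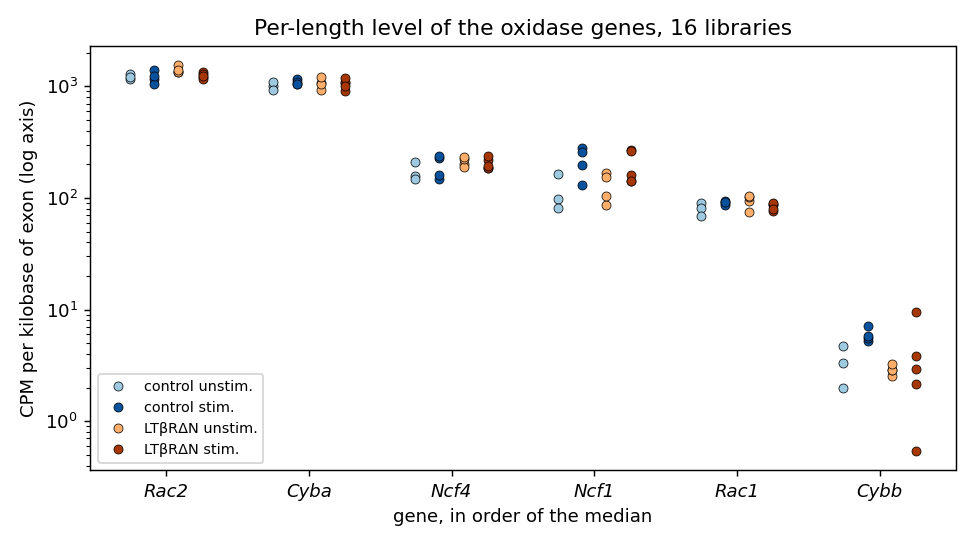
Level of the 6 oxidase genes per kilobase of exon in CPM per kilobase on a log axis. Each point is 1 of 16 libraries, coloured by group, and genes stand in the order of their medians. Rac2 and Cyba lie near 1000, Ncf4, Ncf1 and Rac1 between 69.5 and 277, and Cybb below 10, with the 5 stimulated LTβRΔN libraries spread from 0.541 to 9.59.

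Cybb was the least counted and the most variable of the 6. It had 7 to 450 counts per library, against at least 423 for the other 5 genes, and its log2 level varied with an SD of 0.887 within groups, compared with a median of 0.555 over the 500 tested genes nearest to it in level. Rac2, Cyba and Rac1 were the steadiest, with SDs of 0.112, 0.131 and 0.147 within groups. Ncf1 had an SD of 0.480 within groups, compared with a median of 0.184 over the 500 tested genes nearest to it in level, so it varied more between libraries of the same group than genes of like abundance did.

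The genes lie on 4 chromosomes of GRCm38 (GENCODE M21). Ncf1 is on chromosome 5 from 134220053 to 134229625 and Rac1 on chromosome 5 from 143503634 to 143528036. Ncf4 is on chromosome 15 from 78244801 to 78262580 and Rac2 on chromosome 15 from 78559167 to 78572783. Cyba is on chromosome 8 from 122424776 to 122432930 and Cybb on chromosome X from 9435252 to 9487771. All are on the minus strand except Ncf4. Exons of Gtf2ird2 on the opposite strand overlap 408 bases (11.1%) of those of Ncf1, and exons of Daglb overlap 2309 bases (51.4%) of those of Rac1. The strand setting of the counting was not given in the sources used here, so reads in these stretches cannot be told apart. Gtf2ird2 itself had few reads, with means of 1.57 and 6.83 CPM in unstimulated and stimulated controls, while Ncf1 had 420 and 789 CPM.

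Ncf1, the organizer subunit, had a higher mean level in stimulated than in unstimulated neutrophils of both genotypes. The unstimulated control libraries had 602, 359 and 300 CPM and the stimulated ones 1015, 725.96, 941 and 475 CPM. In LTβRΔN neutrophils, Ncf1 had 319, 611, 568 and 384 CPM without and 519, 984, 974, 588 and 522 CPM with stimulation. The groups of each genotype overlapped, in controls because the fourth stimulated library lay below the first unstimulated one. The log2 fold change was 0.91 in controls (standard error 0.29, 1.88-fold, 95% interval 1.24 to 2.85, edgeR adjusted p = 0.109) and 0.62 in LTβRΔN neutrophils (standard error 0.25, 1.53-fold, 1.06 to 2.21, edgeR adjusted p = 0.268), so neither passed the threshold of 0.05 over 9213 genes. Some libraries share a number in their column names, and what it marks is not stated. With that number as a block, both passed (0.81 and 0.69, edgeR adjusted p = 1.22e-04 and 1.35e-04).

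When the stimulated label was compared over both genotypes together, a comparison added after the separate values were seen, Ncf1 rose by 0.76 on the log2 scale (standard error 0.19, 1.70-fold, 95% interval 1.28 to 2.24, edgeR adjusted p = 0.0145). The call was lost without the second or the third unstimulated control library (log2 fold changes of 0.71 and 0.66, edgeR adjusted p = 0.0569 and 0.0618). In controls alone the reverse held, as Ncf1 passed without the first unstimulated library (1.26, adjusted p = 0.0287) or without the fourth stimulated one (1.09, adjusted p = 0.0299). The library index went with the label, being S521 in all 9 stimulated libraries and in 1 of 7 unstimulated ones. That 1 was the third unstimulated control library, and an index term rests on it. In LTβRΔN neutrophils index and label cannot be told apart. With the index in the model, the averaged Ncf1 estimate was 1.34 with an adjusted p of 0.282, and with scaling by library totals only it was 0.54 with an adjusted p of 0.0762.

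The third stimulated control library, with 941 CPM of Ncf1, also had the highest summed levels of platelet markers (206 CPM, 6.46 to 55.4 CPM in the other control libraries) and of immature neutrophil markers (770 CPM, 91.1 to 329 CPM in the others). All 7 platelet markers were counted in both control groups, and of the 8 immature neutrophil markers Elane and Ctsg were at 0 in all libraries. Without this library the averaged log2 fold change of Ncf1 was 0.71 (edgeR adjusted p = 0.0317). In bulk RNA, a change in the make-up of the cells and a change in RNA per cell cannot be told apart.

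The other cytosolic phox subunit, Ncf4, did not follow Ncf1 past its spread. Unstimulated controls had 425, 319 and 297 CPM and stimulated controls 463, 299, 478 and 326 CPM. LTβRΔN libraries had 407, 383, 452 and 474 CPM without and 378, 378, 438, 391 and 476 CPM with stimulation. Its averaged log2 fold change with stimulation was 0.06 (95% interval -0.17 to 0.29, edgeR adjusted p = 0.889).

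Among the membrane subunits, Cybb was low and variable, and Cyba varied little. For Cybb, the catalytic gp91phox, unstimulated controls had 19.1, 27.6 and 11.5 CPM and stimulated controls 30.5, 32.0, 41.3 and 33.5 CPM, so that every stimulated control library lay above every unstimulated one. LTβRΔN libraries had 14.8, 16.8, 16.5 and 18.7 CPM without and 22.4, 55.7, 16.9, 3.14 and 12.4 CPM with stimulation, where the second stimulated library lay highest and the fourth lowest of all 16. The fitted log2 fold change was 0.82 in controls (standard error 0.52, edgeR adjusted p = 0.652) and 0.45 in LTβRΔN neutrophils (standard error 0.47, edgeR adjusted p = 0.819), where it fell to -0.31 without the second stimulated library.

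Complete separation of the control groups with the stimulated group higher was seen for 1 of the 6 genes, Cybb, and for 6.58% of all tested genes. In LTβRΔN neutrophils it was seen for 0 of the 6 and for 4.61% of all tested genes. Cyba, the stabilizing p22phox, had 1041, 1132 and 964 CPM in unstimulated and 1204, 1087, 1136 and 1079 CPM in stimulated controls. In LTβRΔN neutrophils it had 1106, 953, 1078 and 1252 CPM without and 1116, 948, 1127, 1242 and 1042 CPM with stimulation. The 4 groups overlapped throughout, and the averaged log2 fold change was 0.05, with a 95% interval of -0.11 to 0.21.

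The GTPase genes varied little as well. Rac2, the haematopoietic form, had 3986, 3619 and 3731 CPM in unstimulated and 3582, 3273, 4341 and 3834 CPM in stimulated controls. LTβRΔN libraries had 4206, 4789, 4146 and 4326 CPM without and 4185, 3784, 3640, 4020 and 3846 CPM with stimulation, so that each unstimulated LTβRΔN library exceeded each unstimulated control library. The averaged log2 fold change of Rac2 with stimulation was -0.09 (95% interval -0.23 to 0.06, edgeR adjusted p = 0.626). With scaling by library totals only, which lowered the median of all genes to -0.25, that of Rac2 was -0.31 with an edgeR adjusted p of 0.00501.

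Rac1, the ubiquitous form, had 406, 362 and 312 CPM in unstimulated and 404, 391, 422 and 417 CPM in stimulated controls. In LTβRΔN neutrophils it had 420, 339, 454 and 470 CPM without and 397, 344, 385, 408 and 356 CPM with stimulation. The values of the 4 groups overlapped. Its log2 fold changes with stimulation were 0.18 in controls and -0.16 in LTβRΔN neutrophils (edgeR adjusted p = 0.729 and 0.666). Daglb, which shares 51.4% of the exon bases of Rac1, had means of 65.9 and 61.1 CPM in unstimulated and stimulated controls and 56.8 and 33.3 CPM in LTβRΔN neutrophils.

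**Figure D2:**
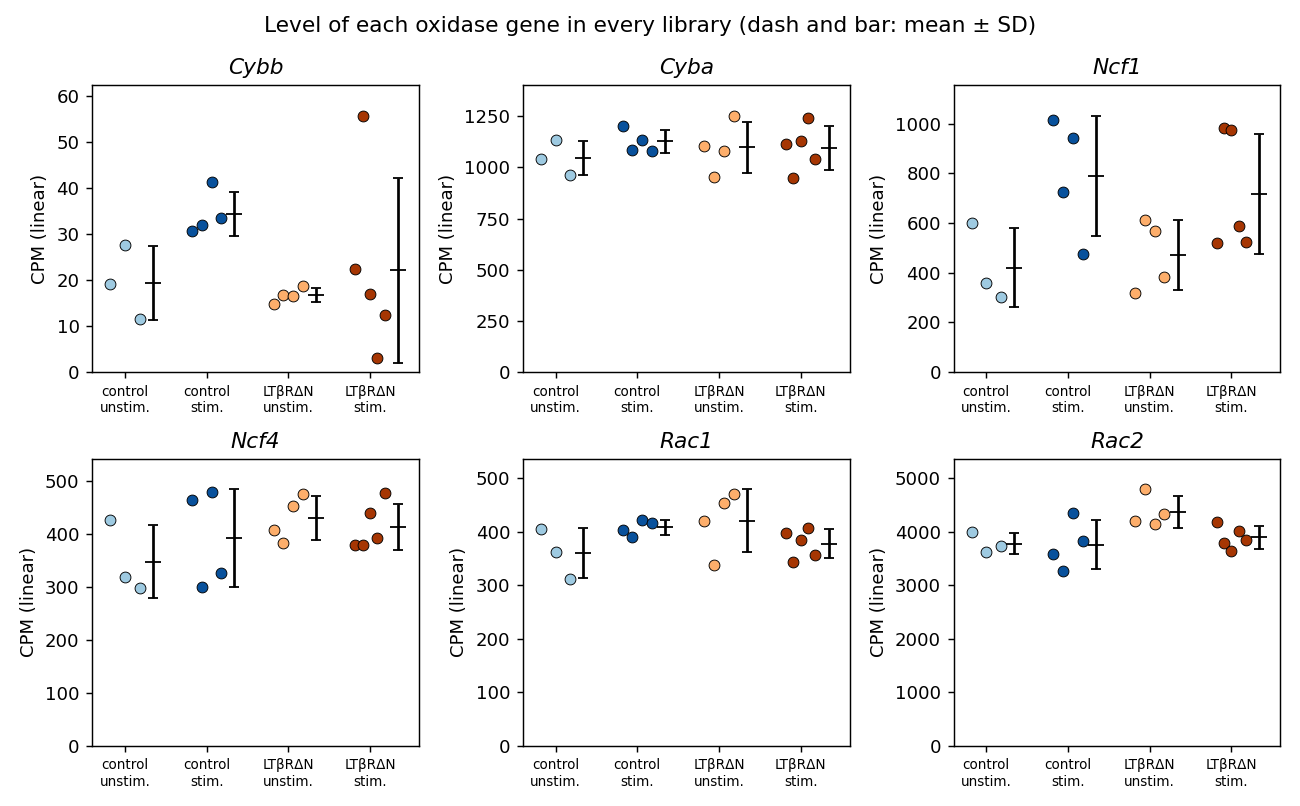
Level of each oxidase gene in CPM (linear axes from 0), 1 panel per gene. Points are the 3, 4, 4 and 5 libraries of the groups in order of their number, and the dash with bars gives the mean ± SD. Ncf1 reaches 1015 CPM in stimulated and 611 CPM in unstimulated libraries, the control groups separate for Cybb, and the points of Cyba lie between 948 and 1252 CPM in all groups.

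Counts of calls put these values beside the rest of the table. In controls, 0 of the 6 genes passed the threshold with stimulation, where 3.48% of the 9213 tested genes did, and in LTβRΔN neutrophils 0 of 6, where 3.73% did. With both genotypes averaged, 1 of 6 passed (Ncf1, higher), where 6.73% of tested genes did. At an unadjusted p under 0.05 the count was 1 of 6 in each genotype, which was Ncf1 both times, against 11.4% of tested genes in controls and 13% in LTβRΔN neutrophils. DESeq2 also called 0 of 6 in each genotype and 1 of 6 in the average. The median log2 fold change of the 6 genes was 0.18 in controls and -0.03 in LTβRΔN neutrophils, against -0.02 and -0.03 over all tested genes.

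The comparison of genotypes asked whether oxidase RNA depends on LTβR in neutrophils. In stimulated cells, edgeR called 0 of the 6 genes, and 0.0217% of tested genes, which were 2 genes with the deleted Ltbr among them. The estimates ran from -0.59 for Cybb (95% interval -1.53 to 0.35) to 0.07 for Ncf4, and that of Ncf1 was -0.14 (95% interval -0.65 to 0.38). In this comparison 0 of the 6 genes were completely separated with LTβRΔN higher, against 0.651% of tested genes.

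In unstimulated cells, 0 of 6 were called, and again 0.0217% of tested genes, Ltbr among them. Rac2 was 1.16-fold as high in LTβRΔN as in control neutrophils (95% interval 0.992 to 1.35, edgeR adjusted p = 1) and was the 1 gene of the 6 with complete separation and LTβRΔN higher, which held for 2.54% of tested genes. The estimates of Ncf4 and Rac1 were 0.31 and 0.23 on the log2 scale (95% intervals -0.04 to 0.65 and -0.04 to 0.50). At an unadjusted p under 0.05, 0 of 6 genes passed in either genotype comparison, against 2.80% of tested genes in unstimulated and 6.41% in stimulated cells, and DESeq2 called 0 of 6 in both.

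The effect of stimulation itself was not shown to depend on genotype. The interaction gave 0 calls among the 6 genes and in 0% of tested genes, also 0 of the 6 at an unadjusted p under 0.05 (3.71% of tested genes) and 0 of the 6 with DESeq2. The interaction estimate of Ncf1 was -0.29 with a 95% interval of -1.08 to 0.49, and that of Rac1 -0.34 (-0.70 to 0.02).

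**Figure D3:**
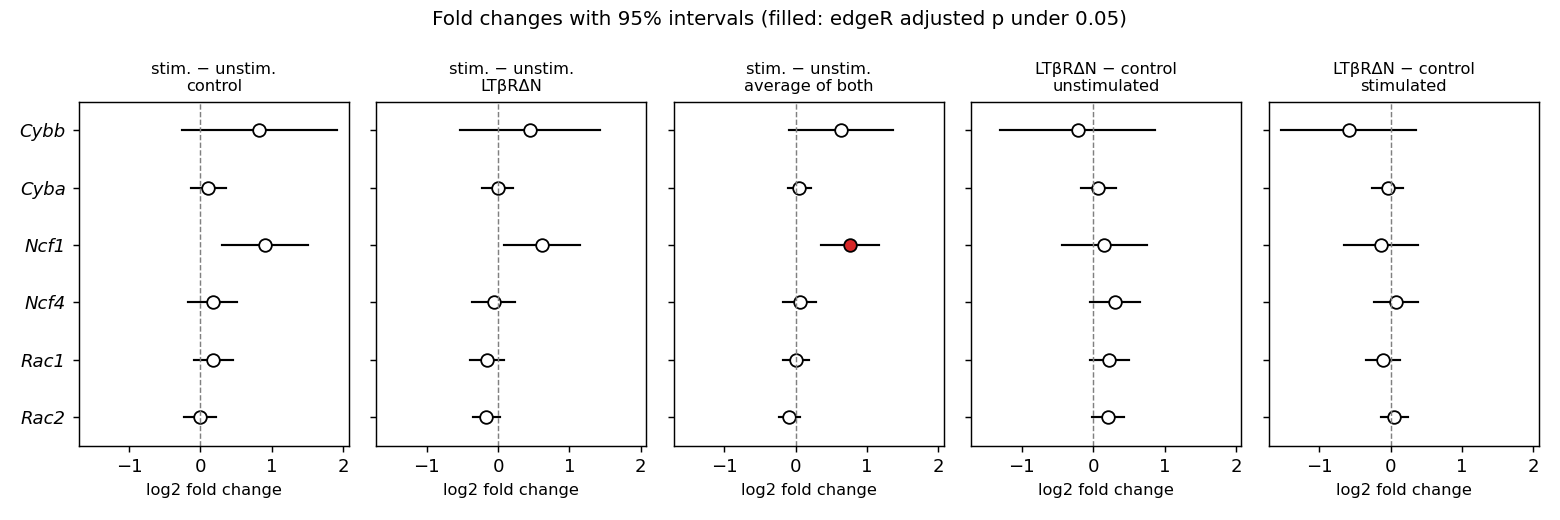
Log2 fold changes of the 6 genes with 95% intervals from the edgeR model in 5 comparisons. Filled points have an adjusted p under 0.05. The filled point is Ncf1 in the average over both genotypes (0.76), and the widest intervals are those of Cybb.

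Ratios between partners compare genes within a library and so do not depend on how libraries are scaled. The Ncf1 to Ncf4 ratio of counts was 1.42, 1.13 and 1.01 in unstimulated and 2.19, 2.42, 1.97 and 1.46 in stimulated controls, and every stimulated library was higher. In LTβRΔN neutrophils it was 0.785, 1.59, 1.26 and 0.810 without and 1.37, 2.60, 2.22, 1.5 and 1.10 with stimulation, and here the groups overlapped. The ratio was 1.69-fold higher with stimulation in controls (exact two-sided permutation p = 0.0571, adjusted p = 0.254 over 12 tests) and 1.57-fold higher in LTβRΔN neutrophils (exact permutation p = 0.111, adjusted p = 0.333). With 4 libraries against 3, 0.0571 is the smallest p that this test can give, so it cannot reach 0.05 in controls.

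The ratio of the flavocytochrome partners, Cybb to Cyba, had a geometric mean of 0.0175 in unstimulated and 0.0303 in stimulated controls, 1.73-fold apart (exact permutation p = 0.0571, adjusted p = 0.254). In LTβRΔN neutrophils it spread from 0.00253 to 0.0587 among stimulated libraries, around the range of 0.0134 to 0.0176 of the unstimulated ones. Rac2 reads outnumbered Rac1 reads 8.38 to 14.1 times over all 16 libraries, with no correction for the overlap of Rac1 with Daglb. Between stimulated LTβRΔN and stimulated control neutrophils the Rac2 to Rac1 ratio differed by 1.13-fold (exact permutation p = 0.0635, adjusted p = 0.254), and 0 of the 12 adjusted p-values were under 0.05.

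**Figure D4:**
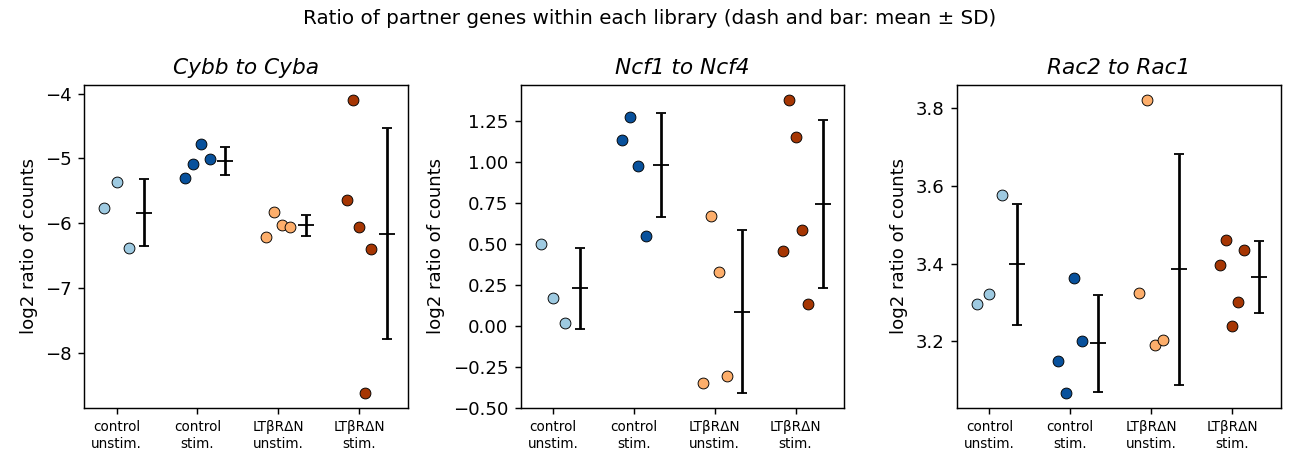
Log2 ratio of counts of 3 pairs of partner genes within each library, with the mean ± SD of each group. For Ncf1 to Ncf4 and Cybb to Cyba the 4 stimulated control libraries lie above the 3 unstimulated ones. The 5 stimulated LTβRΔN libraries span the widest range for Cybb to Cyba.

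The 6 genes did not vary as a block across libraries. As a description over 16 libraries, which share the groups and the scaling, the highest Pearson correlation of log2 levels between members was 0.72, between Cyba and Rac1, while Ncf1 correlated with Ncf4 at 0.37 and with Cyba at 0.03. Among tested genes with a mean of at least 50 CPM, those most like Ncf1 were Ninj1, a membrane protein of plasma membrane rupture (r = 0.94), Rap1b, a small GTPase (r = 0.89), and Tln1, the integrin activator talin (r = 0.88). Within groups these correlations were 0.92, 0.82 and 0.91, so they did not rest on the stimulated label alone.

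Cyba was most like Cox17, Ndufb8 and Ndufa13, which serve the mitochondrial respiratory chain (r = 0.87, 0.80 and 0.79). Cybb was most like Uba1, Sema4d and Pacs1 (r = 0.80, 0.79 and 0.77). Ncf4 was most like Pdlim7, Lnpep and Apoe (r = 0.84, 0.79 and 0.77), and Rac1 most like Gpx1, Pilra and Arpc3 (r = 0.84, 0.76 and 0.75). Rac2 was most like D11Wsu99e, Tspo and Lrg1 (r = 0.82, 0.80 and 0.80).

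Other oxidases of the NOX family were at or near 0. Nox1, Nox3, Nox4, Duox1, Duox2, the DUOX maturation factors Duoxa1 and Duoxa2, and the activator Noxa1 had 0 counts among 98029304 in all libraries together, which allows a level of up to 0.0306 CPM, counting error only. Noxo1, the organizer of NOX1, had 40 counts in 4 libraries, of them 30 in a single library, and Rac3 had 1 count.

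Genes around the oxidase were followed through 6 lists. For comparison with the counts below, stimulation was called for 3.48% of all tested genes in controls, in either direction. The share was 3.73% in LTβRΔN neutrophils and 6.73% with both genotypes averaged. Among 11 tested genes for assembly, chaperone and associated proteins, 1 rose in each genotype and 0 fell. This was Prdx6, a peroxiredoxin with phospholipase activity, which went from 313 ± 50.6 (SD, n = 3) to 708 ± 103 (SD, n = 4) CPM in controls and from 331 ± 35.8 (n = 4) to 633 ± 92.9 (n = 5) CPM in LTβRΔN neutrophils. Its log2 fold changes were 1.17 and 0.93 (edgeR adjusted p = 1.17e-05 and 4.94e-05). The median of the list was -0.05 in controls, against -0.02 over all tested genes.

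Among 27 tested kinases and lipid enzymes upstream of the oxidase, Syk, which signals from Fc receptors and integrins, rose in each genotype, and 0 fell. It had 332 ± 24.3 CPM in unstimulated and 508 ± 89.0 CPM in stimulated controls, a log2 fold change of 0.61 (edgeR adjusted p = 0.0157), and 0.63 in LTβRΔN neutrophils (edgeR adjusted p = 0.00386). Of 19 tested Rac exchange factors, GDIs and GAPs, 0 passed in any comparison. The smallest unadjusted p in controls was that of Tiam1, a Rac exchange factor, with a log2 fold change of -3.43 and a standard error of 1.41 (edgeR adjusted p = 0.300). Of 10 tested genes of NADPH supply, among them the pentose phosphate enzymes, 0 passed in any comparison. Me2, a malic enzyme, had the smallest p in controls, with a log2 fold change of -1.15 and a standard error of 0.78 (edgeR adjusted p = 0.694).

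Antioxidant genes held the largest differences of the lists that passed the test. Of 11 tested genes for superoxide and peroxide handling, 2 rose in each genotype and 0 fell. Sod2, the mitochondrial superoxide dismutase, had 23.3 ± 1.64 CPM in unstimulated and 532 ± 68.7 CPM in stimulated controls, and 30.4 ± 6.49 and 496 ± 138 CPM in LTβRΔN neutrophils, 22.8-fold and 16-fold higher (edgeR adjusted p = 5.64e-12 and 3.25e-12). Txnrd1, the cytosolic thioredoxin reductase, had 18.6 ± 2.86 and 184 ± 42.5 CPM in controls and 21 ± 11.8 and 185 ± 56.7 CPM in LTβRΔN neutrophils, 9.85-fold and 9.66-fold higher (edgeR adjusted p = 1.40e-07 and 3.04e-08). In both genotypes, each stimulated library lay above each unstimulated one for both genes. Such separation held for 6.58% of all tested genes in controls and 4.61% in LTβRΔN neutrophils.

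Of 11 tested transcription factors known to act on phox genes, 1 rose and 0 fell in controls, and 2 rose and 1 fell in LTβRΔN neutrophils. With both genotypes averaged, 2 rose and 3 fell. Irf1, which responds to interferon and NF-kB, rose 3.48-fold in controls, from 472 ± 14.7 to 1645 ± 33.2 CPM, and 2.90-fold in LTβRΔN neutrophils (edgeR adjusted p = 3.59e-10 and 3.80e-10). Nfkb1, the p105 and p50 subunit gene of NF-kB, rose 1.90-fold in LTβRΔN neutrophils (edgeR adjusted p = 0.0265). Sfpi1, the older symbol of Spi1 that encodes PU.1, fell there by 0.33 on the log2 scale, from 2051 ± 54.1 to 1632 ± 67.9 CPM (edgeR adjusted p = 0.0319). Neither Nfkb1 nor Sfpi1 passed in controls, and neither was called in the interaction, so their response was not shown to differ between genotypes.

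No gene of these lists passed in a comparison of genotypes or in the interaction with edgeR. Of the 89 tested genes of the 6 lists, 9 had an unadjusted p under 0.05 between unstimulated genotypes, 6 between stimulated genotypes and 1 in the interaction, against 2.80%, 6.41% and 3.71% of all tested genes.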

How the data were processed

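The authors deposited 1 table of raw counts of reads per gene symbol, single-end and not normalized, and the submitters' processing notes name Bowtie 1.0.0, TopHat 1.4.1, HTSeq 0.7.1 and mm10. Annotation, strand setting and counting mode were not given in the sources used here. The 6 genes and all lists were chosen with earlier results of these data known. Counts were kept by filterByExpr (minimum count 10, minimum total 15; 9213 of 23337 symbols) and fitted over all 16 libraries with edgeR 4.0.16 in R 4.3.3 (TMM, 1 coefficient per group, quasi-likelihood test, Benjamini-Hochberg over all tested genes, threshold 0.05), a code first tested on simulated data. For stimulated against unstimulated controls, that test recovered 0.5% of 200 genes changed 1.5-fold. It recovered 23.5% of those changed 2-fold and 47.5% of those changed 4-fold, so many true changes in the table can go uncalled. The changed genes were drawn at random from all tested genes, whose log2 levels had a median SD of 0.634 within groups. Cybb varied more (0.887) and the other members less (0.112 to 0.480), so these shares do not give the recovery for the 6 genes. Each of the 6 genes was tested. Log2 levels used a prior count of 2. Partner ratios were compared by exact permutation tests that double the smaller tail. GENCODE M21 gave places and exon lengths for 89.7% of symbols by direct match.

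Named genes are the 6 members, list genes with an adjusted p under 0.05, the gene with the smallest p in controls for a list with none, the 3 genes most correlated with each member, Ltbr, Cish, Socs3 and Nfkbia. Alternatives were DESeq2 1.42.0, other scalings and filters, the library index, a replicate block, only the groups compared, and each library left out. Library pairs of a group differed by more than sampling noise.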

Additional observations from a re-analysis of the deposited data

How the results depend on the processing

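Over 990 recomputed values, 915 kept their direction and their side of the threshold (or their size), 51 changed sign, all of them estimates that did not pass the threshold, 8 passed it newly, 4 lost it, 2 levels moved, and 10 were counts of called genes that changed with these estimates. The number of the 6 genes called in controls rose from 0 to 1 (Ncf1) with at least 10 counts in every library (log2 fold change 0.92, adjusted p = 0.0352), with no filter beyond 1 count (0.90, 0.0420) and in the range of 0 to 1 with each library left out. In LTβRΔN neutrophils it rose from 0 to 1 with library totals only (Rac2, -0.35, 0.0257). In the average over genotypes it fell from 1 to 0 with the index as a covariate and ranged from 0 to 1 with each library left out, where the Ncf1 estimate ran from 0.66 to 0.94. DESeq2, its size factors and upper-quartile scaling kept that call.

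Each stimulated library had a TMM factor of 0.916 to 0.951 and each unstimulated one of 1.03 to 1.14, so scaling by library totals only shifted the median of all genes to -0.27 in controls, -0.21 in LTβRΔN neutrophils and -0.25 in their average. It turned the sign of Cyba (-0.14 in controls, -0.16 averaged), Ncf4 (-0.075 and -0.16) and Rac1 (-0.069 and -0.20). The estimate of Cyba in LTβRΔN neutrophils turned to 0.019 with at least 10 counts, 0.0125 with DESeq2's size factors, 0.010 with its Wald test, 0.012 with only the groups compared, 0.17 with the index and 0.015 without the 2 stimulated libraries whose column number was not shared, an alternative added after seeing the data. Leaving those 2 out also turned Ncf1 between stimulated genotypes to 0.055 and Ncf4 averaged to -0.026. The index turned Ncf1 between unstimulated genotypes to -0.037, Ncf4 and Rac1 in LTβRΔN neutrophils to 0.26 and 0.14, and Rac2 in controls to 0.010. All values with the index rest on 1 unstimulated control library, the only one of its group with index S521. Rac2 in controls also turned to 0.0019 with at least 10 counts and to 0.0033 and 0.0035 with DESeq2's size factors and Wald test. Averaged Rac1 turned to -0.025 with upper-quartile scaling and -0.050 without the 3 libraries with the lowest totals.

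A number in the column names is shared by 7 pairs of an unstimulated and a stimulated library, and what it marks is not stated. Deviations from group means correlated at 0.02 to 0.07 within these pairs, 0 of 7 over 0.1. In other pairs of an unstimulated and a stimulated library of the same genotype they correlated at -0.049 to 0.030. The number was not taken to pair libraries in the main fit. Low correlations cannot exclude pairing, and 6 of 7 unstimulated libraries correlated best with their own number. With the replicate block, the calls among the 6 genes went from 0 to 1 in controls and in LTβRΔN neutrophils, Ncf1 each time (0.81, adjusted p = 1.22e-04, and 0.69, 1.35e-04), Cyba in LTβRΔN neutrophils was 0.0147 and averaged Ncf4 -0.0294. Ncf1 was higher in 7 of 7 same-number pairs, 1.53-fold to 2.02-fold.

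With each library left out, estimates that changed sign ran from -0.090 to 0.0060 (Cyba, stimulated genotypes), -0.068 to 0.066 (Cyba, LTβRΔN stimulation), -0.48 to 0.13 (Cybb, unstimulated genotypes), -0.31 to 0.72 (Cybb, LTβRΔN stimulation), -0.32 to 0.0075 (Ncf1, stimulated genotypes), -0.040 to 0.50 (Ncf1, unstimulated genotypes), -0.034 to 0.18 (Ncf4, stimulated genotypes), -0.037 to 0.057 (Rac1, averaged), -0.0088 to 0.13 (Rac2, stimulated genotypes) and -0.084 to 0.053 (Rac2, control stimulation). Log2 ratios that did so ran from -0.47 to 0.045 (Cybb to Cyba, unstimulated genotypes), -0.65 to 0.49 (the same, LTβRΔN stimulation), -0.34 to 0.0036 (Ncf1 to Ncf4, unstimulated genotypes), -0.16 to 0.076 (Rac2 to Rac1, unstimulated genotypes) and -0.083 to 0.13 (the same, LTβRΔN stimulation). With the longest transcript, the median level per kilobase was 1474 for Cyba and 273 for Ncf4. The causes of the shifts were not tested.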
